A study of Mus musculus with 7 samples.

Results

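The genes of bile acid synthesis, of the repressor arm that acts on it and of bile acid transport were followed in whole mouse liver after AAV8-Ttr-Cre. They were 10 of the 16819 genes measured: the enzymes Cyp7a1, Cyp8b1, Cyp27a1, Cyp7b1 and Akr1d1, the nuclear receptors Nr1h4 and Nr0b2, and the carriers Slc10a1, Slc10a2 and Abcb11. They were chosen by name, with earlier results of these data known. Each had 1 probe set with its symbol, which passed with no filter on low signals. RNA came from livers of male Dicer1 fl/fl mice of mixed 129S4 and C57BL/6 background, whose Dicer1 gene (the ribonuclease that matures microRNAs) is flanked by loxP sites. The virus, of serotype AAV8, carries Cre under the Ttr (transthyretin) promoter, which is active in hepatocytes, and was injected at 8 to 10 weeks of age. The groups were control livers taken at 0 weeks (3 arrays), livers taken 2 weeks after injection (2 arrays) and livers taken 4 weeks after it (2 arrays), all from mice fasted for 4 h. The arrays of a group are labelled as biological replicates, and with 2 or 3 of them the p-values measure only the spread between these samples. A virus lacking Cre was not among the groups and the controls were not kept for 2 or 4 weeks, so the virus, Cre, the elapsed weeks and the loss of Dicer1 cannot be told apart. All values are log2 signals of Affymetrix whole-transcript arrays, so a difference of 1 is a 2-fold change, and levels of different genes are not compared.

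Bile acids are made from cholesterol in hepatocytes. Cyp7a1 starts the classic route, Cyp27a1 and Cyp7b1 serve the alternative route, Cyp8b1 directs synthesis towards cholic acid, and Akr1d1 reduces the steroid ring. Bile acids returning to the liver bind the receptor FXR, the product of Nr1h4, which induces Nr0b2 (the repressor SHP); SHP in turn restrains Cyp7a1 and Cyp8b1 by acting on the factors HNF4A and NR5A2. Slc10a1 (NTCP) takes bile acids up from blood into hepatocytes and Abcb11 (BSEP) exports them into bile, whereas Slc10a2 (ASBT) is known as the apical uptake carrier of the ileum and, in liver, of bile duct cells.

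The 250 bases before the annotated start were read from RefSeq promoter sequences (GRCm38.p6) for 8 of the 10 genes, in 9 windows. Cyp7a1 and Cyp7b1 had no entry. The windows below are shown because they belong to the repressor gene Nr0b2, which rose, to the carriers Slc10a2 and Abcb11 that changed in opposite directions, and to Cyp8b1, a known target of SHP. Each reads 5′ to 3′ on the gene's strand, and capitals mark matches to 6 motifs searched on both strands.
Nr0b2 (chr4:133553126-133553375, plus strand): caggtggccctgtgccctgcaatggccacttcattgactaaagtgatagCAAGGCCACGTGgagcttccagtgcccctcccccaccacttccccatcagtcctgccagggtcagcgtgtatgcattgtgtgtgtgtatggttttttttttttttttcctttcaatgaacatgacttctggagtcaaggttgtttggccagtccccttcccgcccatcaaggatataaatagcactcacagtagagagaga
Slc10a2 (chr8:5105288-5105537, minus strand): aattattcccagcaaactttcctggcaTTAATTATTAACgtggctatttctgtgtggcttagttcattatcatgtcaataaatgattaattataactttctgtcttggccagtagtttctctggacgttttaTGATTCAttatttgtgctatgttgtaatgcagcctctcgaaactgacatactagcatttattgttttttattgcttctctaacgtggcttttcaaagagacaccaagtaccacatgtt
Abcb11 (chr2:69342617-69342866, minus strand): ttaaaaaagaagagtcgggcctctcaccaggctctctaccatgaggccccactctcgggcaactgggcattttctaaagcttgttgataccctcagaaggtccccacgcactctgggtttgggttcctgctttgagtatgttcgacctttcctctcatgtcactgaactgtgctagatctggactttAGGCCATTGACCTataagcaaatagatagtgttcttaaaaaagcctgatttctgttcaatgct
Cyp8b1 (chr9:121916306-121916555, minus strand): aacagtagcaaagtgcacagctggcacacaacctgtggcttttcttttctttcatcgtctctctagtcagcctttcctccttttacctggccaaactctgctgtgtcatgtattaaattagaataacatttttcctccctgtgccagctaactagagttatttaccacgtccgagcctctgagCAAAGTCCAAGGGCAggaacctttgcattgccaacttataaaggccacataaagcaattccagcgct

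Each of these windows held at least 1 match, and the other 5 windows, those of Cyp27a1, Akr1d1, Nr1h4 and the 2 starts of Slc10a1, held 0. Abcb11 carried the inverted repeat of FXR (letters AGGNCA and TGACCT with 1 base between them) from 63 to 51 bases before the start, a match found in 0.0335% of 32851 promoter windows of the same length. In Nr0b2 the letters CAAGGNCA, bound by NR5A2 (in 5.53% of windows), lay from 201 to 194 bases before the start and overlapped an E-box, CACGTG (in 6.02%). Cyp8b1 held the HNF4 letters CAAAGTCCA from 67 to 59 bases before the start (in 0.384% of windows), overlapping a second NR5A2 match from 60 to 53. Slc10a2 held the HNF1 letters TTAAT and ATTAAC with 1 base between them, from 223 to 212 bases before the start (in 0.0609%) and the AP-1 letters TGANTCA from 118 to 112 (in 6.75%). The letters were set with these sequences in view, so which windows hold a match, and how rare it is elsewhere, is no test of these genes. A match is a description of the sequence, not a measured binding site.

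**Figure D1:**
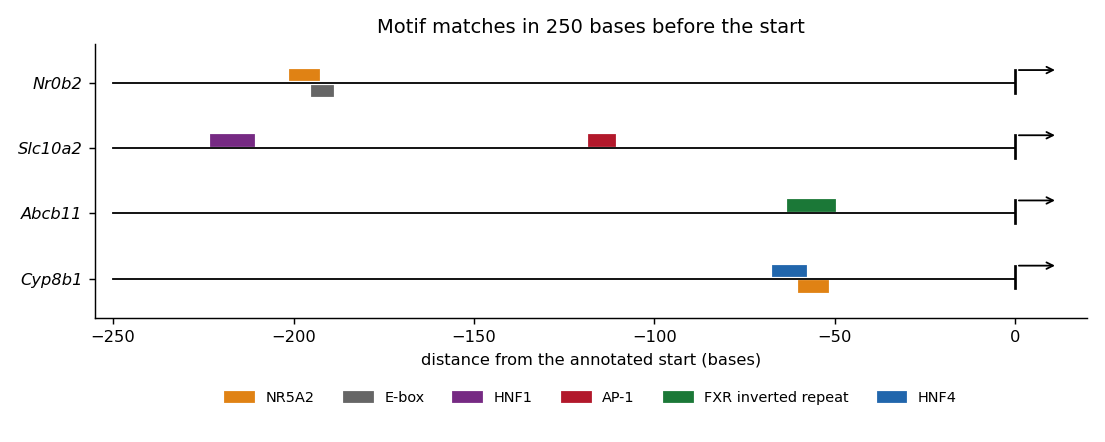
Motif matches (coloured boxes) in the 250 bases before the annotated start (arrow) of 4 bile acid genes, with distance from the start in bases on the horizontal axis. The FXR repeat of Abcb11 lies 63 to 51 bases before the start, and both matches of Cyp8b1 lie within 67 bases of it, whereas those of Nr0b2 and the HNF1 match of Slc10a2 lie at least 190 bases before it.

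The Dicer1 signal and the tissue were checked first. Dicer1 averaged 0.76 lower at 2 weeks (SE 0.09, limma adjusted p = 0.0158) and 0.66 lower at 4 weeks (SE 0.09, adjusted p = 0.0159) than in controls, on the log2 scale. That is a signal 1.70-fold and 1.58-fold lower in whole liver, and the deletion of the gene itself was not measured here. Hepatocyte markers were high on every array, with a mean log2 signal over 12 genes of 13.81 to 13.86 in controls, 13.79 to 13.81 at 2 weeks and 13.81 to 13.84 at 4 weeks.

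At 2 weeks after the virus 1 of the 10 genes had changed against control, Abcb11, which was higher. At 4 weeks 5 had changed: Nr0b2, Abcb11 and Akr1d1 were higher and Slc10a2 and Cyp7a1 were lower. A change here is a limma adjusted p under 0.05 after Benjamini-Hochberg over all 16819 genes. By the same rule 5.93% of all genes had changed at 2 weeks (3.46% higher and 2.47% lower) and 9.77% at 4 weeks (5.15% higher and 4.62% lower). With both times averaged against control, the same 5 genes passed in the same directions, against 12.9% of all genes (6.79% higher and 6.12% lower). The 2 week and control arrays did not overlap for 9 of the 10, 4 higher and 5 lower, where this held for 34.9% of all genes (17.3% higher and 17.5% lower). The 4 week and control arrays did not overlap for 8 of the 10 genes, 3 higher and 5 lower, where this held for 39.8% of all genes (21.6% higher and 18.2% lower). All 4 arrays after Cre lay on the same side of all controls for 8 of the 10 genes, against 25.1% of all genes. The median log2 fold change of the 10 genes was -0.16 at 2 weeks and -0.14 at 4 weeks, beside 0.00 and 0.01 over all genes. Both times were set against the same 3 control arrays. As the 10 genes were chosen with earlier results known, these shares are a description and not a test of the set.

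**Figure D2:**
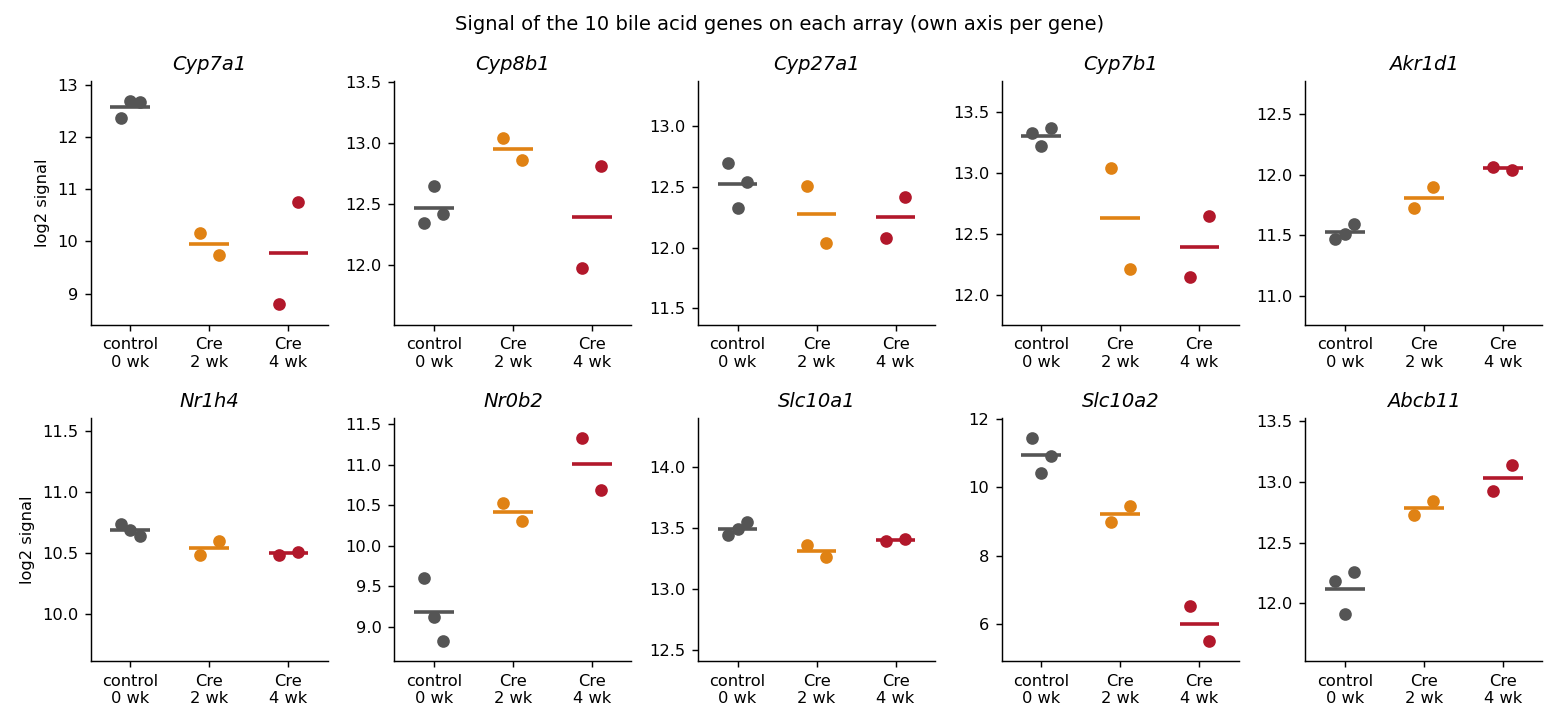
The log2 signal of each bile acid gene on each of the 7 arrays (points) with the group mean (bar), by week after the virus; each gene has its own vertical axis. Slc10a2 and Cyp7a1 sit below the controls on all arrays after Cre and Nr0b2, Abcb11 and Akr1d1 above them, with the 2 arrays at 4 weeks far apart for Cyp7a1 (8.79 and 10.75).

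Among the enzymes, Cyp7a1 was the one that fell. Cyp7a1 had a signal of 12.36, 12.68 and 12.67 in controls, 10.16 and 9.74 at 2 weeks and 8.79 and 10.75 at 4 weeks. All 4 arrays after Cre lay below all controls, and the lowest and the highest of these 4 were both at 4 weeks. The log2 fold change was -2.62 at 2 weeks (SE 0.55, 95% interval -3.99 to -1.25, limma adjusted p = 0.055) and -2.80 at 4 weeks (SE 0.55, -4.16 to -1.43, adjusted p = 0.0374), so the fall passed at 4 weeks and missed the threshold at 2 weeks. By size it ranked 9 among all negative changes at 2 weeks and 10 at 4 weeks. Without Cre 4 wk replicate 1 the 4 week value was -1.82 (adjusted p = 0.0634) and without replicate 2 it was -3.78 (adjusted p = 0.035). The 4 week call was also lost without control replicate 1, 2 or 3 (adjusted p = 0.10, 0.122 and 0.124) and without either 2 week array (0.0682 each), while the 2 week value passed without either 4 week array (0.0275 each).

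Cyp8b1, which makes the precursor of cholic acid, did not pass at either time. Its signal was 12.35, 12.65 and 12.42 in controls, 13.04 and 12.86 at 2 weeks and 11.98 and 12.81 at 4 weeks. Both 2 week arrays lay above the controls, and the 4 week arrays lay on either side of them. Its log2 fold changes were 0.48 (95% interval -0.13 to 1.10, limma adjusted p = 0.322) at 2 weeks and -0.07 (-0.69 to 0.54, adjusted p = 0.904) at 4 weeks.

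In the alternative route, Cyp7b1, an oxysterol hydroxylase, had a signal of 13.33, 13.22 and 13.37 in controls, 13.04 and 12.21 at 2 weeks and 12.14 and 12.65 at 4 weeks. Cyp7b1 was below the controls on each of the 4 arrays after Cre, but 2 week replicate 1 was close to them. Its log2 fold changes, -0.68 (SE 0.27, limma adjusted p = 0.209) and -0.91 (SE 0.27, adjusted p = 0.0986) at 2 and 4 weeks, missed the threshold. Without 2 week replicate 1 or 2 the 4 week value stayed at -0.91 with adjusted p = 0.0446, because the lone 2 week array then adds nothing to the estimated spread. Without 2 week replicate 1 the 2 week value was -1.09 (adjusted p = 0.0467).

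Cyp27a1, the mitochondrial sterol hydroxylase, ranged over 12.32 to 12.70 in controls, 12.04 to 12.51 at 2 weeks and 12.08 to 12.42 at 4 weeks, so the groups overlapped. Its log2 fold changes were -0.25 (95% interval -0.72 to 0.22) and -0.27 (-0.74 to 0.20), with limma adjusted p of 0.498 and 0.455. Akr1d1, the ring reductase shared by both routes, moved the other way. It had a signal of 11.47, 11.51 and 11.59 in controls, 11.73 and 11.89 at 2 weeks and 12.06 and 12.04 at 4 weeks, with no overlap between the groups. It rose 1.44-fold at 4 weeks (log2 0.53, SE 0.07, adjusted p = 0.0149), and at 2 weeks its log2 fold change was 0.29 (SE 0.07, adjusted p = 0.0667). The 4 week call was lost without control replicate 1 or 2 (adjusted p = 0.0528 and 0.0635) and without 4 week replicate 1 or 2 (0.0848 and 0.0806), and without 2 week replicate 1 the 2 week value passed (log2 0.37, adjusted p = 0.032).

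**Figure D3:**
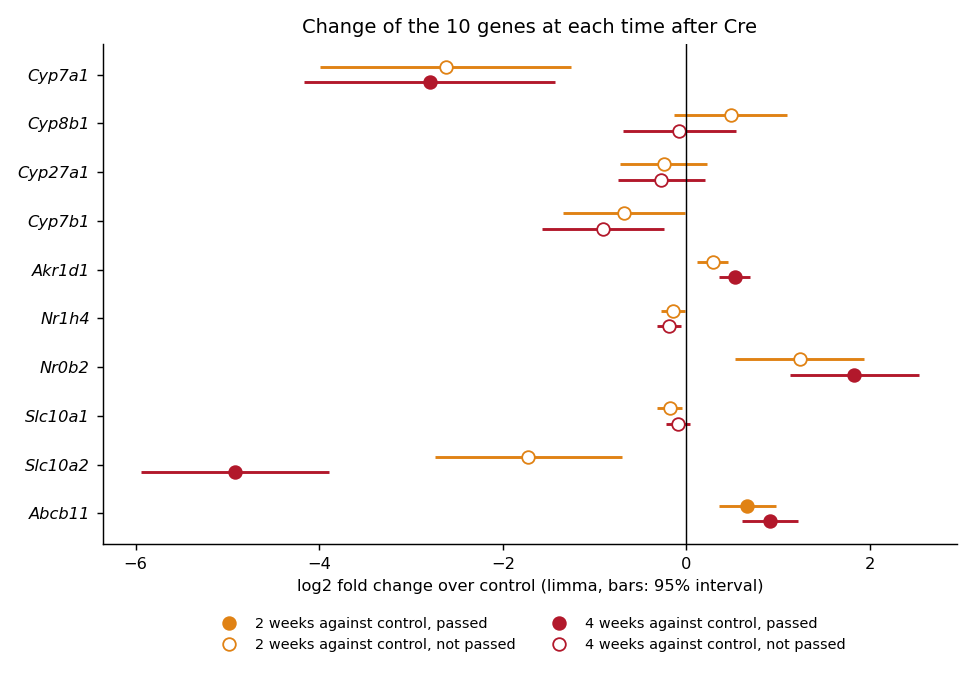
Log2 fold change over control of each of the 10 genes at 2 and 4 weeks (points) with the 95% interval of the limma fit (bars); filled points passed an adjusted p of 0.05. Slc10a2 has the lowest value, -4.92 at 4 weeks, and Nr0b2 the highest, 1.83; Abcb11 is the gene filled at both times.

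In the repressor arm the target gene Nr0b2 rose, while the receptor gene did not pass. Nr1h4, which encodes FXR, had a signal of 10.73, 10.69 and 10.64 in controls, 10.49 and 10.60 at 2 weeks and 10.49 and 10.51 at 4 weeks. All arrays after Cre were below all controls, by small amounts: the log2 fold changes were -0.15 (95% interval -0.28 to -0.01, limma adjusted p = 0.179) and -0.19 (-0.32 to -0.06, adjusted p = 0.087), and neither passed.

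Nr0b2, which encodes SHP, had a signal of 9.60, 9.12 and 8.82 in controls, 10.53 and 10.30 at 2 weeks and 11.33 and 10.69 at 4 weeks. All arrays after Cre exceeded all controls, and both 4 week arrays exceeded both 2 week arrays. Nr0b2 rose 3.55-fold at 4 weeks (log2 1.83, SE 0.28, limma adjusted p = 0.0213), while the 2.35-fold difference at 2 weeks missed the threshold (log2 1.23, SE 0.28, adjusted p = 0.0652). Leaving out control replicate 2 or 3, or 4 week replicate 1 or 2, gave 4 week values of 1.80, 1.65, 1.51 and 2.15 with adjusted p of 0.0818, 0.0712, 0.106 and 0.0751. The array with the highest Nr0b2 signal, 4 week replicate 1, also had the lowest signals of Cyp7a1, Cyp8b1 and Cyp7b1. Among the other 3 arrays after Cre the order was not kept: 4 week replicate 2 had the next highest Nr0b2 and the highest Cyp7a1.

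Of the carriers, Slc10a2 changed most. Its signal was 11.44, 10.42 and 10.93 in controls, 8.97 and 9.44 at 2 weeks and 6.52 and 5.50 at 4 weeks, so that the 3 groups did not overlap and each later group lay lower. It was 30.2-fold lower at 4 weeks (log2 -4.92, SE 0.41, limma adjusted p = 0.00772), the largest fall among the 16819 genes, whereas the 3.30-fold lower signal at 2 weeks missed the threshold (log2 -1.72, SE 0.41, adjusted p = 0.0713). Without 4 week replicate 2 the 4 week value was -4.41 (adjusted p = 0.0554), and without any other array it passed. No detection call was used here, so whether the 4 week signals lay above background is not known.

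Since Slc10a2 is known from bile duct cells, 16 bile duct markers were read beside it, of which 12 were measured. At 4 weeks 1 of them had risen, Sox9 (log2 0.43, SE 0.09, limma adjusted p = 0.0401), and 0 had fallen (8.33%, against 9.77% of all genes). At 2 weeks 0 had changed (0%, against 5.93% of all genes), where 1 of the 12 had an unadjusted p under 0.05. With 12 genes, these counts do not set the list apart from all genes. The log2 of their summed signal was 11.15 to 11.26 in controls, 11.11 to 11.37 at 2 weeks and 11.29 to 11.48 at 4 weeks, so both 4 week arrays lay above the controls. The 2 keratins Krt7 and Krt19, the adhesion molecule Epcam and the secretin receptor Sctr, which define these cells, had group means between 5.85 and 6.66 in every group, below the median signal of every array. Krt7 had the same value, 6.46, on 5 of the 7 arrays and Sctr the same value, 5.85, on 3, so a fall in these genes may not be measurable here. The summed level was carried largely by the water channel gene Aqp1, the brightest marker, with means of 10.39 in controls, 10.33 at 2 weeks and 10.59 at 4 weeks. In whole tissue, fewer cells of a type and less RNA per cell cannot be told apart, and the part of bile duct cells in the Slc10a2 values was not tested.

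Slc10a1, the uptake carrier of hepatocytes and a paralog of Slc10a2, had a signal of 13.44, 13.50 and 13.55 in controls, 13.37 and 13.27 at 2 weeks and 13.40 and 13.42 at 4 weeks. All arrays after Cre lay below the controls by under 0.3, and neither log2 fold change passed, at -0.18 (95% interval -0.31 to -0.05, limma adjusted p = 0.118) and -0.09 (-0.22 to 0.04, adjusted p = 0.379). The export pump Abcb11 was the gene that rose at both times. It had a signal of 12.19, 11.91 and 12.26 in controls, 12.72 and 12.84 at 2 weeks and 12.92 and 13.14 at 4 weeks, with all 3 groups apart. It rose 1.59-fold at 2 weeks (log2 0.67, SE 0.12, adjusted p = 0.0438) and 1.88-fold at 4 weeks (log2 0.91, SE 0.12, adjusted p = 0.0172). The 2 week call was lost without any 1 of the 7 arrays (adjusted p = 0.0714 to 0.161), and the 4 week call without control replicate 1 or 3 (0.0579 and 0.054) or 4 week replicate 1 or 2 (0.0758 and 0.0964).

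Between 4 and 2 weeks, 0 of the 10 genes passed, where limma called 1 of all 16819 genes (0.00595%), the clock repressor Nr1d1. At an unadjusted p under 0.05 there were 2 of the 10, Slc10a2 and Akr1d1, and 0 passed after adjustment in any alternative fit. The log2 difference of Slc10a2, -3.20 (SE 0.45, 95% interval -4.31 to -2.08, adjusted p = 0.27), was the largest in size among all genes in this comparison. The difference of Akr1d1 was 0.24 (0.06 to 0.42, adjusted p = 0.551) and that of Nr0b2 0.59 (-0.18 to 1.36, adjusted p = 0.747). For Cyp7a1 it was -0.18 (-1.67 to 1.32, adjusted p = 0.98), an interval too wide to set the times apart or to call them alike. The groups at 4 and 2 weeks did not overlap for 6 of the 10 genes, 4 higher and 2 lower, against 26.6% of all genes (15% higher and 11.6% lower).

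Other enzymes of synthesis and conjugation were mostly short of the threshold. Of 19 measured, 2 rose and 0 fell at each time (10.5%, against 5.93% of all genes at 2 weeks and 9.77% at 4 weeks), with a median log2 fold change of 0.00 at 2 weeks and 0.02 at 4 weeks. Hsd3b7, which acts directly after Cyp7a1 in the pathway, rose 2.16-fold at 2 weeks (log2 1.11, SE 0.10, limma adjusted p = 0.00877) and 2.22-fold at 4 weeks (log2 1.15, SE 0.10, adjusted p = 0.00797). Its signal was 10.80, 11.05 and 10.99 in controls, 12.15 and 11.95 at 2 weeks and 12.14 and 12.05 at 4 weeks, on the opposite side of the controls from Cyp7a1 on each array. Amacr, a racemase of side chain oxidation, rose at 2 weeks (log2 0.42) and Acnat1, a peroxisomal acyltransferase, at 4 weeks (log2 0.58). Slc27a2, an acyl-CoA synthetase, was at -0.21 and -0.13 at 2 and 4 weeks, and the peroxisomal carrier Scp2 at -0.26 and -0.39, all short of the threshold.

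Of 23 measured regulators, 1 rose and 0 fell at 2 weeks (4.35%, against 5.93% of all genes), and 4 rose and 2 fell at 4 weeks (26.1%, against 9.77%). The 2 week gene was the glucose-responsive factor gene Mlxipl (log2 0.60, limma adjusted p = 0.0458). At 4 weeks Prox1, a corepressor of HNF4A and NR5A2, rose 1.56-fold (log2 0.64, SE 0.12, adjusted p = 0.0307), as did Smarcd1, a chromatin remodelling subunit (log2 0.64, adjusted p = 0.027). The other risers, Klb (log2 0.69, adjusted p = 0.0392), the co-receptor of intestinal FGF15, and Mlxipl (0.56), are named after their values were seen. Cebpb fell by 1.16 (SE 0.20, adjusted p = 0.0258) and Nr1h3, the oxysterol receptor LXR alpha, which activates Cyp7a1 in mice, by 0.33 (SE 0.07, adjusted p = 0.0377). Hnf4a was at -0.01 and 0.03 at 2 and 4 weeks and Nr1i3, the receptor CAR, at 0.06 and -0.03, both short of the threshold. The median of the list was 0.06 at 2 weeks and 0.03 at 4 weeks.

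Of 20 other measured carriers of bile acids and canalicular lipids, 2 rose and 1 fell at 2 weeks (15%, against 5.93% of all genes), and 3 rose and 0 fell at 4 weeks (15%, against 9.77%). Atp8b1, the flippase that protects the canalicular membrane, rose 1.59-fold at 2 weeks (log2 0.67, SE 0.12, limma adjusted p = 0.0435) and 1.91-fold at 4 weeks (log2 0.93, SE 0.12, adjusted p = 0.0164), close in size to Abcb11. Slc10a5, an orphan paralog of Slc10a2, rose by 0.72 and 0.71 on the log2 scale at 2 and 4 weeks (adjusted p = 0.0266 and 0.0207), opposite in direction to Slc10a2. The sterol exporter gene Abcg5 rose at 4 weeks (log2 0.62, adjusted p = 0.0491), and the fatty acid binding gene Fabp1 fell by 0.28 at 2 weeks (adjusted p = 0.0335). Ephx1, an epoxide hydrolase, was at 0.46 and 0.19 at 2 and 4 weeks, short of the threshold. Of 8 measured genes of bile acid hydroxylation and sulfation, 1 rose and 0 fell at each time, Cyp2b9. That is 12.5%, against 5.93% of all genes at 2 weeks and 9.77% at 4 weeks. On the log2 scale Cyp2b9 rose by 5.22 at 2 weeks (SE 0.83, limma adjusted p = 0.0298) and by 6.19 at 4 weeks (SE 0.83, adjusted p = 0.0163). Its control signals were spread, at 5.39, 6.50 and 7.38. Cyp3a11 was at 0.24 and 0.15 at 2 and 4 weeks, short of the threshold. Cyp2b and Cyp3a genes have close paralogs that can share probes.

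**Figure D4:**
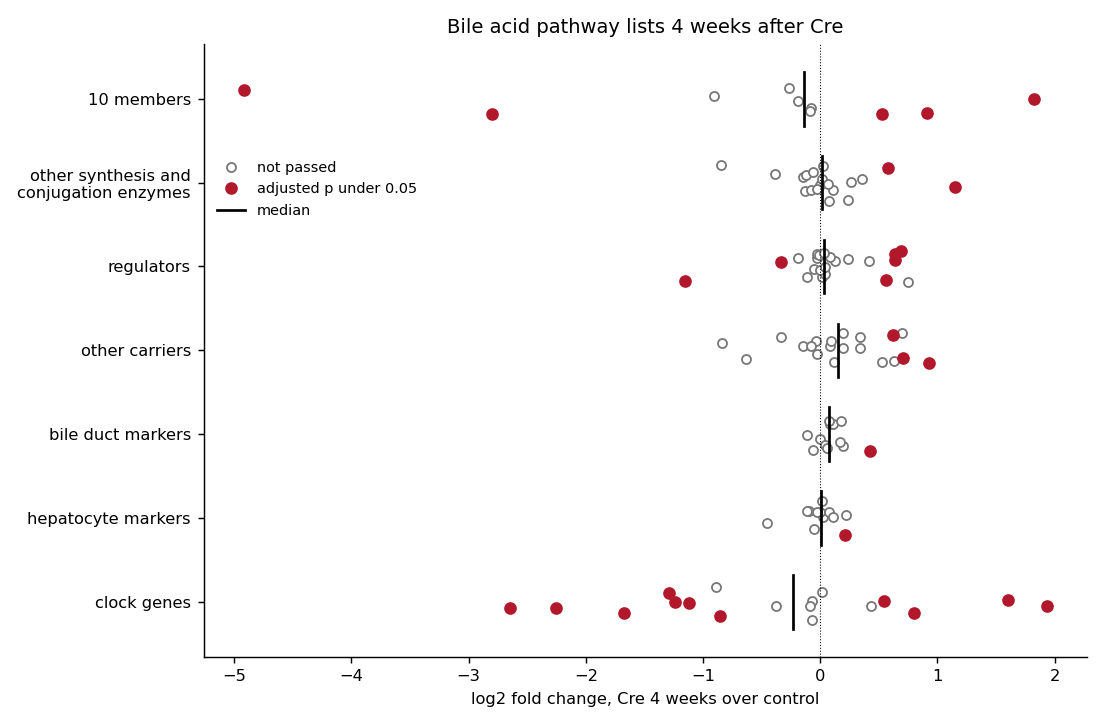
Log2 fold change at 4 weeks over control for each measured gene of 7 lists (points; filled where adjusted p was under 0.05), with the median of each list as a bar. The 10 bile acid genes span -4.92 to 1.83. Of the 12 bile duct markers and of the 12 hepatocyte markers 1 each passed (8.33%), near the 9.77% of all genes.

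Cyp7a1 is a known output of the circadian clock, and the clock genes differed between the same arrays. Of 18 measured, 3 rose and 7 fell at 2 weeks (55.6%, against 5.93% of all genes), and 4 rose and 7 fell at 4 weeks (61.1%, against 9.77%). Dbp, an activator of Cyp7a1, had a signal of 9.51, 9.87 and 10.00 in controls, 7.38 and 7.39 at 2 weeks and 8.04 and 8.20 at 4 weeks. Dbp fell by 2.41 at 2 weeks (SE 0.15, limma adjusted p = 0.00402) and by 1.67 at 4 weeks (adjusted p = 0.00851). Nr1d1, a clock repressor, had a signal of 9.11, 9.23 and 9.08 in controls, 8.27 and 8.59 at 2 weeks and 11.14 and 11.01 at 4 weeks, so it was below the controls at 2 weeks and above them at 4 weeks (log2 fold changes -0.71 and 1.94, adjusted p = 0.027 and 0.00284). Usp2 fell by 2.23 at 2 weeks, with a log2 fold change of -2.25 at 4 weeks, and Per3 changed by -1.37 and -1.12 at 2 and 4 weeks, while Bhlhe40 was at -0.95 and -0.89 and missed the threshold. Other clock genes moved opposite to Dbp, Usp2 and Per3. Rora was higher by 0.55 at 4 weeks (SE 0.05, limma adjusted p = 0.00772). Arntl lay between 8.80 and 9.37 on the arrays after Cre, above its control range of 7.06 to 7.57. Clock lay between 9.42 and 9.69 on those arrays, above its control range of 8.76 to 8.86. Arntl and Clock are named after their values were seen. The labels used here give no hour of harvest, and the part of the clock genes in the Cyp7a1 and Nr0b2 values was not tested.

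Some genes of JNK and cytokine signalling, which is known to repress Cyp7a1, were higher on the same arrays. Of 14 measured, 4 rose and 0 fell at 2 weeks (28.6%, against 5.93% of all genes) and 5 rose and 0 fell at 4 weeks (35.7%, against 9.77%), and the cytokine genes Tnf, Il1b and Tgfb1 and the JNK gene Mapk8 did not pass at either time. Jun had a signal of 8.18, 8.02 and 7.83 in controls, 10.21 and 10.03 at 2 weeks and 10.53 and 10.29 at 4 weeks. Jun rose 4.32-fold and 5.28-fold at 2 and 4 weeks (SE 0.13 each on the log2 scale, limma adjusted p = 0.00402 and 0.00267). Fos rose 2.64-fold and 2.82-fold (adjusted p = 0.0477 and 0.0316), and the receptor gene Tnfrsf1a by 0.44 and 0.35 on the log2 scale. Dusp1, which encodes a phosphatase that inactivates JNK, rose 2.55-fold at 4 weeks (adjusted p = 0.0235), and Mapk9, which encodes another JNK, was at -0.09 and -0.10, short of the threshold. The array with the highest Nr0b2 and lowest Cyp7a1, 4 week replicate 1, also had the highest Jun, Fos and Dusp1 signals. Among the other arrays after Cre the order was not kept for Cyp7a1. There 4 week replicate 2 had the highest Jun (10.29) and Dusp1 (12.06), the lowest Fos (7.83) and the highest Cyp7a1 (10.75). The part of these signalling genes in the Nr0b2 and Cyp7a1 values was not tested.

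**Figure D5:**
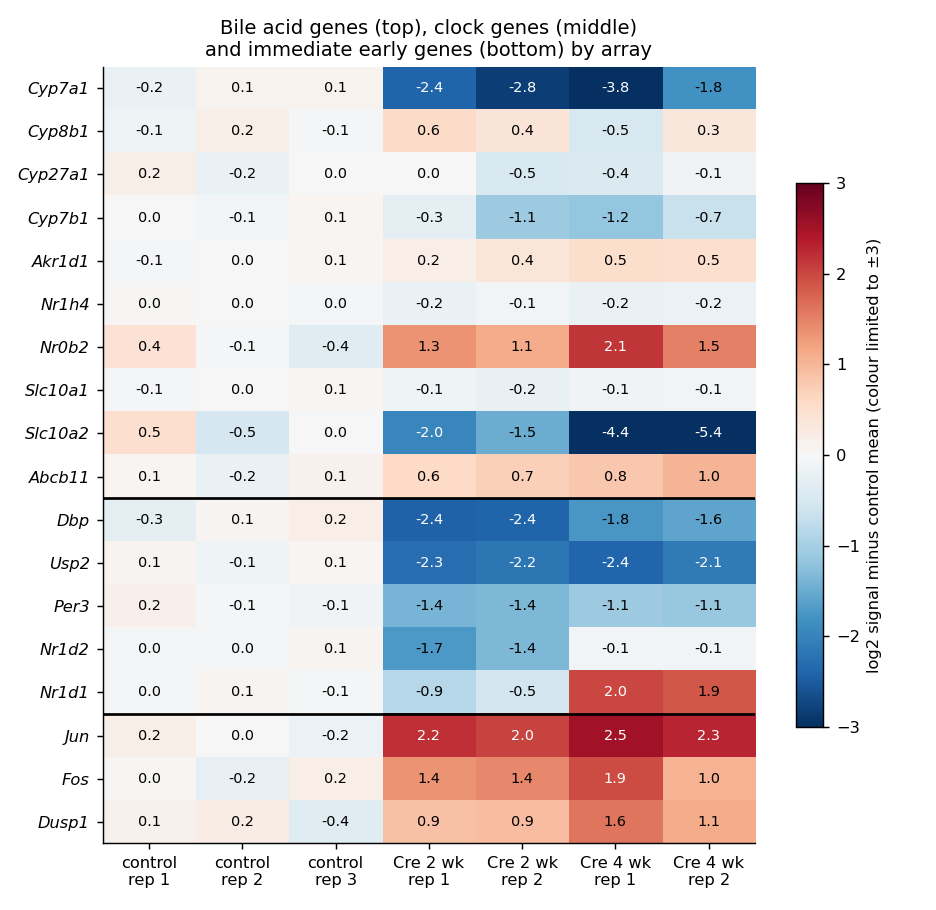
Log2 signal minus the control mean on each array (columns, by week) for the 10 bile acid genes, 5 clock genes and 3 immediate early genes (rows); red is above and blue below the control mean. Among the arrays after Cre, 4 week replicate 1 has the lowest Cyp7a1 and the highest Nr0b2, Jun, Fos and Dusp1. Of the same arrays, 4 week replicate 2 has the highest Cyp7a1, with the next highest Nr0b2, Jun and Dusp1 and the lowest Fos. Nr1d1 changes sign between 2 and 4 weeks. The clock genes Arntl, Clock and Rora, above the controls on all arrays after Cre, are not shown.

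Markers of other liver cells were read on the same arrays. Of the macrophage, stellate cell and lymphocyte markers (10, 10 and 9 measured), 0 passed at 2 or 4 weeks by limma. Of all genes 5.93% passed at 2 weeks and 9.77% at 4 weeks. At an unadjusted p under 0.05 there were 0 macrophage markers at either time, 5 stellate cell markers at 2 weeks and 1 at 4 weeks, and 1 lymphocyte marker, at 4 weeks. The log2 summed signal of the stellate cell markers did not overlap between controls and either time, at 12.36 to 12.41 in controls, 12.58 to 12.73 at 2 weeks and 12.51 to 12.62 at 4 weeks. Among 8 endothelial markers 0 passed at 2 weeks (0 unadjusted), and Clec4g rose at 4 weeks (12.5% of the list, log2 0.60, limma adjusted p = 0.0438). The summed level of the endothelial markers was 12.31 to 12.35 in controls, 12.17 to 12.41 at 2 weeks and 12.56 to 12.77 at 4 weeks, so both 4 week arrays lay above the controls. Of 12 hepatocyte markers 0 passed at 2 weeks (3 unadjusted) and transferrin (Trf) rose by 0.21 at 4 weeks (8.33% of the list), while Alb was at -0.02 and 0.02. With both times averaged against control, 10% of stellate cell and 25% of hepatocyte markers passed, against 12.9% of all genes. For macrophage, endothelial and lymphocyte markers it was 0%. Pdgfrb, a stellate cell marker, rose (log2 0.31, limma adjusted p = 0.0238). Among hepatocyte markers Fgb (0.22, adjusted p = 0.0354) and Trf (0.18, adjusted p = 0.0317) rose. Serpina1d, read in place of the listed Serpina1a, fell by 0.46 (adjusted p = 0.026). The part of these cells in the values of the 10 genes was not tested.

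The genes whose signal most resembled that of 3 of the bile acid genes were sought by Pearson correlation over the 7 arrays, among 481 genes with an SD of at least 0.5. The arrays form a control set and a set after Cre, which all these genes share, so the values are given as a description. Closest to Nr0b2 were Dusp1 (r = 0.98), Slc6a6 (0.96), Jun (0.96), Shank2 (0.95) and Mcu (0.94). Closest to Slc10a2 were Capn8 (0.97), Snora73b (0.94), Taf1d (0.93), Orm2 (0.91) and Snora73a (0.91). Capn8, a calpain protease gene, shared the stepwise pattern of Slc10a2 on a smaller scale, with 7.91, 7.75 and 7.81 in controls, 7.36 and 7.22 at 2 weeks and 6.63 and 6.68 at 4 weeks (log2 fold changes -0.53 and -1.17, limma adjusted p = 0.0199 and 0.00286). Closest to Cyp7a1 were Cd59a (0.98), Gsto1 (0.97), Gstt2 (0.97), Gm14403 (0.97) and Tmem97 (0.96). Cd59a, a complement inhibitor gene, had 9.97, 10.47 and 10.20 in controls, 9.07 and 9.002 at 2 weeks and 8.23 and 9.50 at 4 weeks, with 4 week replicate 1 below replicate 2, as for Cyp7a1, the gene it was chosen to resemble. The log2 fold changes of Cd59a, -1.18 and -1.34 at 2 and 4 weeks, missed the threshold (limma adjusted p = 0.133 and 0.0838). Gstt2 and Snora73a also missed it at both times.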

How the data were processed

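Liver RNA was measured on 7 arrays in 3 groups set by the sample titles. The authors deposited a log2 signal for every probe set on every array, between 3.15 and 14.7; these are levels, judged from their range, and genes are not centred. GCOS 1.4 is named in the submitters' processing notes, with no role. For the summarising and normalizing steps, the method is not given in the sources used. No detection call, scan date or scanner file was used here, so background signal and batches were not examined. The number of arrays limits the precision.

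The platform annotation gives 1 gene symbol to 17709 of 21093 probe sets, several to 187 and leaves 3197 unnamed here; 17648 matched RefSeq by gene number, with 0 symbols changed. Per gene the probe set with the highest mean was kept (16819 genes, 463 with several). A 3-group linear model was fitted to all genes with limma 3.58.1 (R 4.3.3), with 4 residual and 1.688 prior degrees of freedom, using two-sided tests and Benjamini-Hochberg adjustment over all genes at 0.05. The fit was tested on simulated data. Intervals are 95%. Both times after Cre share the control arrays.

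The members and gene lists were chosen with earlier results of these data known. Named are the 10 genes, per list at most 4 passing genes of lowest adjusted p and at most 2 others of highest mean level, and the 5 genes most correlated with Slc10a2, Nr0b2 and Cyp7a1. A list gene without a probe set under its own symbol was sought by its RefSeq synonyms, which put Trf for Tf and Serpina1d for Serpina1a. Genes not found in this way were not used here. Alternatives left out each array, blocked on the replicate number, normalized by quantiles, removed the dimmest 33% of genes, averaged probe sets, used trend and robust variances or array weights, and fitted only the groups compared.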

Additional observations from a re-analysis of the deposited data

How the results depend on the processing

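All 10 genes were refitted under 14 alternatives for each pairwise comparison and 13 for both times averaged. Some of the 14 cannot change a 4 week fold change of these genes. They are leaving out a 2 week array, removing the dimmest 33% of genes, and averaging probe sets (1 for each gene). Trend and robust variances and the fit of the groups compared cannot change it either. Direction was fixed in advance there, and the 5 genes called at 4 weeks kept it in all 14. Slc10a2 passed in 12 of these, Nr0b2, Abcb11 and Akr1d1 in 9 each and Cyp7a1 in 6. The counts were less stable, and the cause was not tested. Leaving out an array or adding a block also takes away residual degrees of freedom. Leaving out 1 array, the bile acid genes called numbered 1 to 5 at 4 weeks, 0 to 2 at 2 weeks, 0 to 0 between the times and 2 to 6 for both times averaged, while all genes called numbered 63 to 1948, 41 to 2168, 0 to 0 and 570 to 2788. With the replicate number as a block (replicate block), 0 of the 10 genes passed in any comparison, and 2, 0, 0 and 5 of all genes; the block leaves 2 residual degrees of freedom. Whether the numbers pair the samples is not known. With control replicate 3 left out, deviations of same-numbered arrays correlated at 0.11 (2 and 4 weeks), 0.0035 (control and 2 weeks) and -0.074 (control and 4 weeks). That is 1 value per pair of groups, which cannot decide it. At 2 weeks, 1 of the 10 genes passed as reported, against 2 after quantile normalization, 2 with trend and robust variances, 5 without the dimmest 33% of genes and 0 with array weights, and 997 of all genes against 1540 without them, 439 with array weights and 276 in a fit of the groups compared. That last fit called 0 genes between the times. Directions turned only where an array was left out, in values that had not passed: the ranges were -0.49 to 0.34 for Cyp8b1 at 4 weeks and -0.0046 to 0.41 for both times, and between the times -1.15 to 0.80 for Cyp7a1, -0.26 to 0.21 for Cyp27a1, -0.65 to 0.18 for Cyp7b1 and -0.098 to 0.011 for Nr1h4.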

Other observations

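Many genes had exactly equal deposited values on several arrays. Equal values on 2 or more of the 7 arrays were found for 58.4% of the 16819 genes, and within a group for 10.3% of genes at 2 weeks, 12.7% at 4 weeks and 25% in controls. None of the 10 bile acid genes was among them (0 of 10 over all arrays). In a group of 2 arrays an equal pair is a spread of 0, and all genes enter the variance prior of the fit.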
